A study of Mus musculus with 18 samples.

Results

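The genes described here encode the folding, quality-control and disposal machinery of the endoplasmic reticulum. There are 40 of them, of 23420 genes listed in each file, and they were chosen by function and pathway from their gene names, as targets of the transcription factors ATF6 and XBP1, chaperones, parts of the translocon, and factors of endoplasmic-reticulum-associated degradation (ERAD). All 40 were found. They fall into 3 sensor and signalling genes, 10 HSP70 and HSP90 chaperones and their cofactors, and 7 lectin chaperones and oxidoreductases. The rest are 9 ERAD factors, and 11 parts of the translocon, the signal peptidase and the translocon-associated protein (TRAP) complex. Of the 40, 39 had enough counts to be tested, and Derl3, a minor member of the derlin family of ERAD channels, had at most 11 counts in any library.

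RNA was sequenced from dendritic cells grown from C57BL/6 bone marrow with 20 ng/ml GM-CSF, a cytokine that drives myeloid differentiation, and sorted for viability and high surface CD11c (an integrin chain). The 18 libraries form 6 groups of 3, each treated for 8 hours, and the labels speak of biological replicates without saying whether these were separate animals or cultures, so p-values measure the spread between these libraries. Cells of genotype Bat3 fl/fl CD11c Cre (cKO), in which the CD11c promoter drives the recombinase that removes floxed Bat3 from cells that express it, received LPS or medium. Wild-type (WT) cells received LPS with IL10 and TGF-β, IL10 and TGF-β alone (the cytokines), LPS alone, or medium. LPS is a bacterial wall component sensed by TLR4, and both cytokines are immunosuppressive. Bat3 is an older name of Bag6, a cytosolic chaperone that shields hydrophobic and mislocalised polypeptides and passes some of them to the proteasome.

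Secretory and membrane proteins enter the endoplasmic reticulum through the Sec61 translocon, lose their signal peptide to the signal peptidase, and fold with the help of BiP (Hspa5), GRP94 (Hsp90b1), calreticulin, calnexin and protein disulfide isomerases. When unfolded proteins build up, the sensor IRE1 (Ern1) splices the message of Xbp1 into its active form and ATF6 is cut to release a transcription factor, and both raise chaperone and ERAD genes through promoter elements such as the endoplasmic reticulum stress response element (ERSE). Proteins that fail to fold are handed by lectins such as Os9 to the Sel1l and Syvn1 ubiquitin ligase and drawn back to the cytosol. In dendritic cells this machinery also serves antigen presentation, since calreticulin and Pdia3 belong to the complex that loads peptide onto MHC class I.

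The promoters are shown first, because the ERSE is the sequence that several of these genes share. RefSeq promoter windows of GRCm38.p6 (mm10), each from 250 bases before to 50 bases after a gene start, were present for 31 of the 40 genes. The ERSE was searched on both strands as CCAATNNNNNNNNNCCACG, in which 9 bases part CCAAT from CCACG. It was found in 9 of the 31 genes, namely Hspa5, Hsp90b1, Dnajc3, Creld2, Calr, Canx, Pdia6, Syvn1 and Derl3, and in 37 of all 27025 genes with a window (0.137%), these included. Since the genes were chosen in part as ATF6 and XBP1 targets, this is a description of the set. Below are the stretches of the 6 ERSE genes whose messages were lower with LPS and cytokines than with LPS alone, written 5′ to 3′ on the gene's strand with the ERSE in capitals. On the opposite strand the element reads from CGTGG to ATTGG.
Hspa5, chr2:34772015-34772053, plus strand: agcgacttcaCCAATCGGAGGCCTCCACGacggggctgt
Hsp90b1, chr10:86705523-86705666, minus strand: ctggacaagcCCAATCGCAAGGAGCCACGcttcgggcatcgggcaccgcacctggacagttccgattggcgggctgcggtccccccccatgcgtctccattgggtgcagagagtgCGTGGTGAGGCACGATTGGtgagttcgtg
Dnajc3, chr14:118937817-118937855, plus strand: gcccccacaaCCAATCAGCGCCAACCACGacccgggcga
Creld2, chr15:88819510-88819548, plus strand: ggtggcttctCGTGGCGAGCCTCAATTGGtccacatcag
Canx, chr11:50325790-50325828, minus strand: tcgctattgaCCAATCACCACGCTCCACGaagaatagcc
Pdia6, chr12:17266481-17266519, plus strand: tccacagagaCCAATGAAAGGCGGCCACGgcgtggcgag

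In Hspa5 the element spans bases -65 to -47 from the start, and Hsp90b1 carries a pair of them. The related ERSE-II, in which 1 base parts ATTGG from CCACG, was found in Herpud1 (ATTGGGCCACG) and in Dnajb11 (ATTGGCCCACG), and in 12 of all 27025 genes (0.0444%). The core of a further element, the UPRE, searched as TGACGTG, was found only in Hspa5 among the 31 genes and in 601 of all genes (2.22%). The match in Dnajb11 lies at bases 7 to 17, after the start. No window was used for Atf6, Hyou1, Sil1, Manf, Derl1, Sec61a1, Sec11c, Spcs3 and Ssr2.

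Each library held between 8056831 and 12068759 expected counts in total. Bag6 stood at 4.56 to 11.3 CPM (counts scaled by library size) in the 6 cKO libraries and 22.8 to 27.6 CPM in the 12 WT libraries. In cKO LPS it was 11.3, 10.4 and 6.31 CPM, and in cKO medium 4.81, 7.31 and 4.56 CPM. By edgeR's quasi-likelihood test it rose with LPS in cKO cells (log2 fold change 0.76, SE 0.19, adjusted p = 0.0018). Its LPS change differed between genotypes by 0.72 (SE 0.25, adjusted p = 0.048), and its part in the genotype by LPS results was not tested. The first library of both cKO groups stood apart in sex-linked genes, with Xist at 1010 CPM under LPS and 526 CPM in medium. The Y-linked gene Ddx3y was at 0.424 and 0.181 CPM in them. Every other library had Xist at 1.12 CPM or less and Ddx3y at 35.1 to 56.4 CPM. This is a female pattern in the first cKO libraries and a male pattern in all others, so sex was not balanced between genotypes. Results that rest on the first cKO libraries are given with and without them. Ribosomal precursor RNA (Rn45s) was lowest in cKO medium, at 11400 to 35300 CPM, against 45500 CPM or more in every other library. The summed level of 14 dendritic-cell markers was 1520 to 2030 CPM with LPS and cytokines and 1760 to 2420 CPM with cytokines, against 8210 to 9010 CPM in WT LPS and 4500 to 10300 CPM in WT medium. The third WT medium library was the low one, with Ccr7 at 17.2 CPM against 212 and 216 CPM in the others. Of 10 plasma-cell and B-cell markers, Mzb1 and Pax5 were at 0 in all 18 libraries. The list summed to 257 to 301 CPM in cKO LPS, 160 to 235 CPM in cKO medium, 98.7 to 138 CPM with LPS and cytokines, 59.2 to 87.1 CPM with cytokines, 203 to 282 CPM in WT LPS and 153 to 189 CPM in WT medium. Sdc1 made up most of each sum, at 34.9 to 291 CPM, and its part in the results was not tested. In these bulk libraries, fewer cells of a type and less RNA per cell cannot be told apart.

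The set spans a wide range of expression. Per length, P4hb, the classical protein disulfide isomerase, was the most abundant, with a mean of 1117 TPM (length-scaled transcript abundance) over the 18 libraries, followed by the oxidase Ero1l at 600.2 TPM, the translocon subunit Sec61b at 590.9 TPM and Hspa5 at 484.7 TPM. The sensors Atf6 and Ern1 were among the lowest, at 8.55 and 4.24 TPM, while Xbp1 reached 364 TPM. Derl3 was lowest at 0.369 TPM. The ratio of the highest to the lowest group mean in CPM was largest among tested genes for Ern1, at 6.97, followed by Edem2 (3.29), Ero1l (3.25), Spcs3 (3.21) and Creld2 (3.07). It was smallest for Syvn1, the ERAD ubiquitin ligase, at 1.23. By mean CPM, the lowest group was WT LPS with cytokines for 12 of the 40 genes and WT medium for another 12. The highest was cKO LPS for 13. Of these 13, only Hspa5, Edem2, Creld2 and Ern1 were also highest in cKO LPS by mean TPM. Hsp90b1, for example, had a mean of 401.6 TPM in cKO LPS and 540.1 TPM in WT medium.

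**Figure D1:**
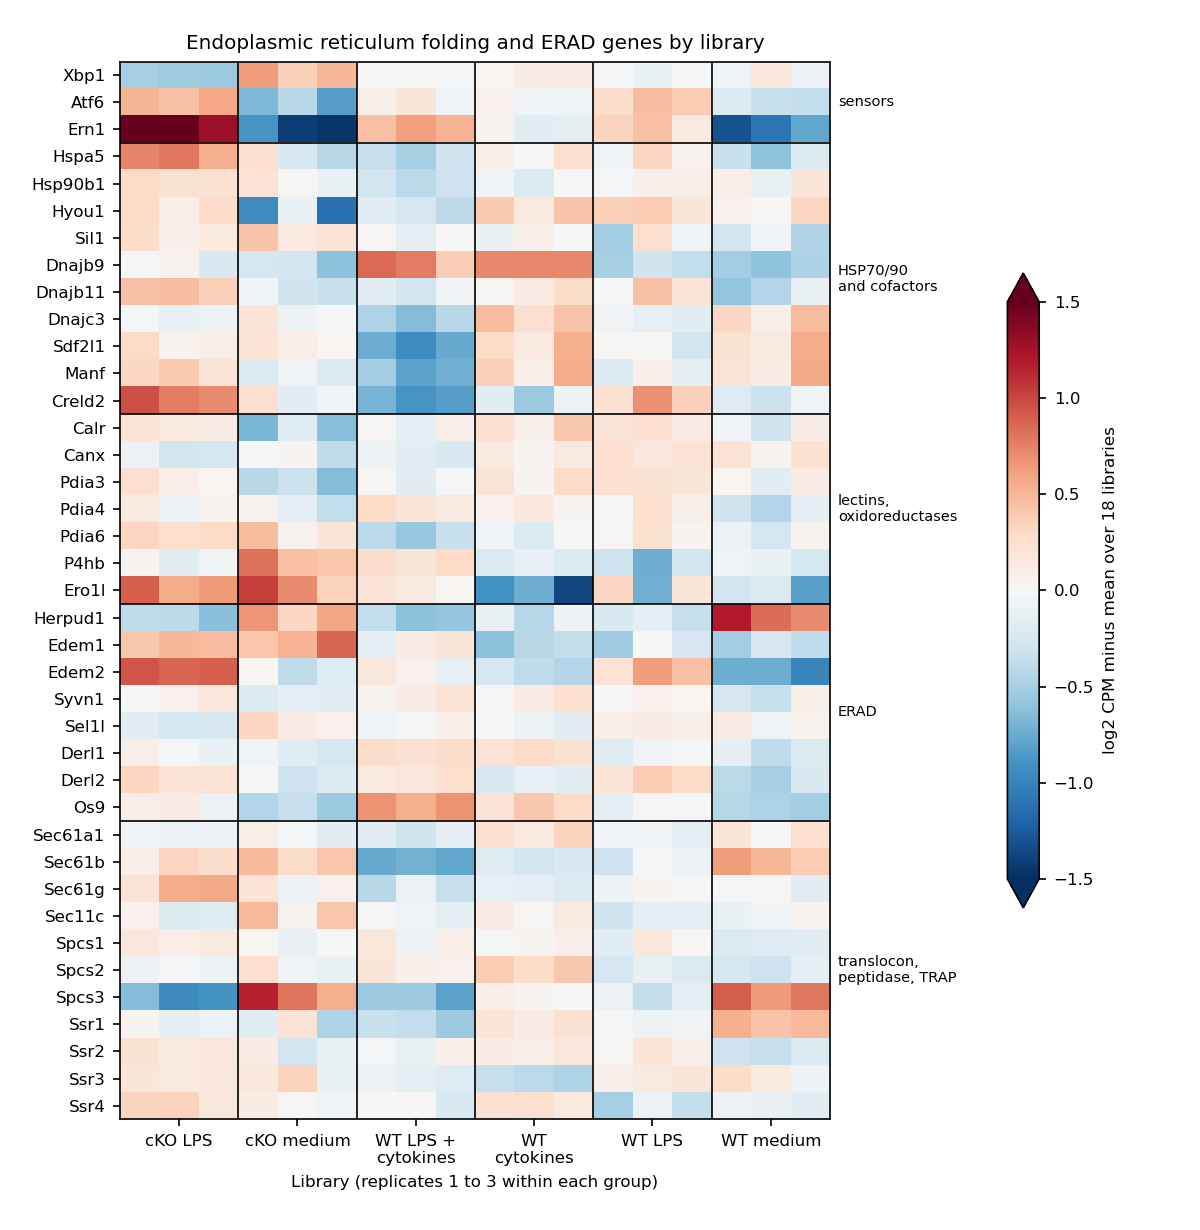
Heat map of the 39 tested genes (down, grouped by role) in the 18 libraries (across, 3 per group). Colour is log2 CPM minus the gene's mean over the 18 libraries, red above and blue below. Ern1 is highest in the 3 cKO LPS libraries, and most chaperones of the second block are blue in the 3 libraries of WT LPS with cytokines.

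The comparison of cKO with WT cells in medium asks what loss of Bag6 does without stimulation. The changes were split by gene, not shared by the set: the mannosidase-like ERAD factors Edem1 and Edem2, the oxidoreductases P4hb and Ero1l and the transcription factor Xbp1 were higher in cKO cells. The BiP cofactors Hyou1 and Manf, the MHC class I loading partners Calr and Pdia3, and the ERAD scaffold Herpud1 were lower. BiP itself was not called. Of 39 genes, 9 rose (23.1%) and 7 fell (17.9%), against 15.8% and 14.4% of all 11876 genes tested, by edgeR's quasi-likelihood test at an adjusted p under 0.05. In either direction 30.2% of all genes were called, and 11 genes of the set had every cKO library above and 7 every cKO library below WT, against 20.1% and 19.3% of all genes. The median log2 fold change was 0.13 over the set and -0.0012 over all genes. In log2(TPM + 1), 39.4% of calls over all genes were higher, against 52.4% on counts, and 6 genes of the set rose and 10 fell.

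In sensing and signalling, Xbp1 was at 746, 620 and 685 CPM in cKO medium, against 462, 541 and 455 CPM in WT medium. The groups did not overlap, and the log2 fold change was 0.49 ± 0.09 (SE; adjusted p = 0.00028). Gene-level counts do not separate its spliced from its unspliced message. Atf6 fell by 0.33 ± 0.11 on the log2 scale (adjusted p = 0.024), and Ern1 was not called (-0.19 ± 0.20, adjusted p = 0.50).

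Edem1, which extracts mannose-trimmed glycoproteins for disposal, was at 152, 164 and 209 CPM in cKO medium, against 79.3, 95.4 and 87.6 CPM in WT medium. All cKO libraries lay above all WT libraries, with a log2 fold change of 1.00 ± 0.13 (adjusted p = 1.7e-05). P4hb stood at 3015, 2318 and 2261 CPM in cKO medium, against 1627, 1579 and 1407 CPM in WT medium, again without overlap (0.72 ± 0.12, adjusted p = 2e-04). Ero1l, which reoxidises protein disulfide isomerases, was 1.14 ± 0.25 higher on the log2 scale (adjusted p = 0.0031), and Edem2 0.64 ± 0.12 higher (adjusted p = 0.00037).

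Among the genes that fell, the smallest p was that of Ssr1, the alpha subunit of TRAP, which had 185, 235 and 150 CPM in cKO medium, against 300, 277 and 289 CPM in WT medium (log2 fold change -0.60 ± 0.11, adjusted p = 0.00055). Its groups did not overlap, while Ssr2, Ssr3 and Ssr4, the other TRAP subunits, were not called. Pdia3 had 395, 420 and 335 CPM in cKO medium, against 535, 467 and 573 CPM in WT medium (-0.45 ± 0.10, adjusted p = 0.0024). Hyou1, an HSP70-family exchange factor of BiP, had 16.9, 30.3 and 14.9 CPM in cKO medium, against 34.0, 32.8 and 40.6 CPM in WT medium (-0.79 ± 0.18, adjusted p = 0.0029). The second cKO library lay close to WT for Hyou1, and the other 2 stood far below.

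Herpud1 had 70.6, 55.6 and 67.3 CPM in cKO medium, against 102, 79.7 and 73.2 CPM in WT medium, and fell by 0.40 ± 0.13 on the log2 scale (adjusted p = 0.022). Its call was lost without the second cKO medium library, without the first WT medium library, and when only the groups compared were fitted. Manf lost its call without the third WT medium library, and Calr and Atf6 lost theirs without the first or the third cKO medium library or 1 of the WT medium libraries. Hspa5 had 897, 639 and 565 CPM in cKO medium, against 601, 499 and 652 CPM in WT medium. The groups overlapped, and the difference was not called (0.26 ± 0.14, adjusted p = 0.18). The level of Hsp90b1 was 883, 772 and 711 CPM in cKO medium, against 814, 706 and 865 CPM in WT medium, and it was not called either. Creld2 had 102, 76.9 and 83.6 CPM in cKO medium, against 75.5, 68.7 and 83.7 CPM in WT medium (0.20 ± 0.14, adjusted p = 0.27). Sdf2l1 and Dnajb9 also overlapped between the groups and were not called. For Sdf2l1 the values were 110, 103 and 97.97 CPM in cKO medium, against 113, 106 and 142 CPM in WT medium, and for Dnajb9 42.6, 42.1 and 33.6 CPM in cKO medium, against 35.8, 33.7 and 36.9 CPM in WT medium.

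Without the first library of both cKO groups, 5 genes rose and 7 fell in medium, and Sil1, Pdia6, Sec11c, Spcs2, Atf6 and Calr were no longer called. Granulocyte markers were also higher in cKO medium, 11 of 14 tested, at a summed 1660 to 4210 CPM against 922 to 1490 CPM in WT medium, and their part in these results was not tested.

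Of 37 other endoplasmic reticulum chaperones and folding enzymes tested, 10 rose and 5 fell, with rises among the oxidoreductases Txndc11 (log2 fold change 1.30), Txndc5 (1.11) and Qsox1 (1.00). Of 34 other ERAD ligase and extraction factors, 8 rose and 4 fell, with a rise of Faf1, a cofactor of the VCP segregase (2.17). Of 41 targeting, translocation and N-glycosylation genes 6 rose and 5 fell, with rises of the mannosyltransferase Alg9 (1.46) and Stt3b, a catalytic subunit of the oligosaccharyltransferase (1.40). Of 26 further signalling genes of the unfolded protein response 6 rose and 1 fell, among them Ppp1r15a, the stress-induced phosphatase subunit that restores translation (1.22).

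Under LPS, cKO cells held more message of the sensor Ern1 and of BiP than WT cells, and less of Xbp1 and of the signal peptidase subunit Spcs3. Edem1, Edem2, P4hb and Ero1l were higher in cKO cells here too. The calls of P4hb and Ero1l were lost without the first cKO LPS or the second WT LPS library, and on the log2(TPM + 1) scale. That of Ero1l was also lost without the third cKO LPS library. The second WT LPS library was low for both. It had P4hb at 1021 CPM, against 1368 and 1397 CPM in the others, and Ero1l at 943 CPM, against 1921 and 1764 CPM. Of 39 genes, 12 rose (30.8%) and 4 fell (10.3%), against 16% and 19.3% of all genes tested. In all, 35.3% of genes were called, and 16 genes of the set had every cKO library above and 5 every cKO library below WT, against 22.8% and 26.4% of all genes. The median was 0.12 over the set and -0.05 over all genes. On the log2(TPM + 1) scale, where the median of all genes moved to -0.31 and 11.8% of calls were higher against 45.3% on counts, 3 genes of the set were called higher and 19 lower, with a set median of -0.23, and centring each library on its median gave 12 higher and 4 lower, with 60.3% of calls over all genes higher.

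Ern1 had 30.4, 29.5 and 22.5 CPM in cKO LPS, against 11.6, 12.6 and 10.3 CPM in WT LPS. The lowest cKO library stood well above the highest WT library, and the log2 fold change was 1.26 ± 0.17 (adjusted p = 1.3e-05). Xbp1, the message that the Ern1 product splices, had 342, 336 and 329 CPM in cKO LPS, against 476, 450 and 479 CPM in WT LPS. It fell by 0.48 ± 0.09 on the log2 scale (adjusted p = 0.00027), so the direction was opposite to that in medium. Atf6 had 57.6, 54.7 and 60.5 CPM in cKO LPS, against 48.6, 55.4 and 52.4 CPM in WT LPS, with overlap and no call (0.14 ± 0.10, adjusted p = 0.30).

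Hspa5 had 1259, 1309 and 1103 CPM in cKO LPS, against 721, 935 and 787 CPM in WT LPS. The groups did not overlap (log2 fold change 0.59 ± 0.14, adjusted p = 0.0035). Creld2, a lumenal protein with EGF-like domains, had 168, 146 and 140 CPM in cKO LPS, against 101, 138 and 110 CPM in WT LPS, a difference of 0.38 ± 0.14 (adjusted p = 0.033) that the lowest cKO and highest WT libraries nearly closed. Manf, a cofactor that binds BiP, and Dnajb9, a J-protein that restrains IRE1, rose by 0.39 ± 0.13 and 0.32 ± 0.12 (adjusted p = 0.025 and 0.044), though on the log2(TPM + 1) scale Dnajb9 had a value of -0.04. Dnajb9 was at 50.2, 53.3 and 43.8 CPM in cKO LPS, against 36.3, 41.8 and 39.8 CPM in WT LPS. Hsp90b1 had 934, 892 and 894 CPM in cKO LPS, against 745, 804 and 817 CPM in WT LPS, and Sdf2l1 117, 100.1 and 102 CPM in cKO LPS, against 97.5, 97.4 and 79.8 CPM in WT LPS. In CPM both lay above WT in every cKO library but missed the threshold (0.20 ± 0.10 for Hsp90b1 and 0.22 ± 0.12 for Sdf2l1). In TPM, every cKO library lay below WT for Hsp90b1. Its values were 421, 389 and 395 TPM in cKO LPS, against 452, 426 and 468 TPM in WT LPS. For Sdf2l1 the groups overlapped, at 140, 115 and 119 TPM in cKO LPS, against 156, 136 and 121 TPM in WT LPS.

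Edem1 had 151, 161 and 157 CPM in cKO LPS, against 78.4, 114 and 95.4 CPM in WT LPS (log2 fold change 0.70 ± 0.13, adjusted p = 4e-04). Ssr4, the delta subunit of TRAP, had 186, 187 and 166 CPM in cKO LPS, against 104, 138 and 115 CPM in WT LPS (0.59 ± 0.10, adjusted p = 0.00013). Neither pair of groups overlapped. Spcs3 had 75.0, 60.8 and 63.1 CPM in cKO LPS, against 111, 92.1 and 108 CPM in WT LPS (-0.64 ± 0.13, adjusted p = 0.00077). Canx, the membrane-bound lectin chaperone, had 423, 370 and 372 CPM in cKO LPS, against 532, 503 and 520 CPM in WT LPS (-0.42 ± 0.10, adjusted p = 0.0032), and Sel1l, the adaptor of the Syvn1 ligase, fell by 0.32 ± 0.09 (adjusted p = 0.0065). All cKO libraries lay below all WT libraries for Spcs3 and Canx.

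Without the first cKO LPS library alone, 7 genes rose, and without the first library of both cKO groups 8 rose and 4 fell, with Ero1l, Creld2, Manf and Dnajb9 no longer called. Dendritic-cell markers summed to 9050 to 9700 CPM in cKO LPS and 8210 to 9010 CPM in WT LPS, though of 13 tested 0 were higher and 3 lower. Granulocyte markers summed to 2110 to 3740 CPM in cKO LPS and 2230 to 4440 CPM in WT LPS, with 0 of 14 higher and 0 lower. Macrophage markers summed to 3920 to 4020 CPM in cKO LPS, against 2640 to 2820 CPM in WT LPS, with 5 of 11 higher and 2 lower, and their part in these results was not tested. Cd14 held the largest part of the cKO LPS sum, at 1900, 2010 and 1960 CPM, against 744, 730 and 791 CPM in WT LPS. The next marker, Csf1r, was at 839, 739 and 739 CPM in cKO LPS, against 758, 665 and 736 CPM in WT LPS. Of the 26 further signalling genes of the unfolded protein response 7 rose and 4 fell, with Atf3, a stress-induced transcription factor, at a log2 fold change of 1.06 and Asns, which makes asparagine, at -1.90. Of the 37 other chaperones and folding enzymes, 9 rose and 6 fell, and of the 34 other ERAD factors, 5 rose and 8 fell, with the membrane protein Erlin2 at -0.94.

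LPS against medium asks how the set moved on TLR4 stimulation. In WT cells the sensors Ern1 and Atf6, BiP, its cofactor Dnajb11, the lumenal protein Creld2, and the ERAD factors Edem2, Derl2 and Os9 rose. Herpud1, Spcs3, Sec61b, Ssr1, Dnajc3, Sdf2l1 and Manf fell. The counts in WT cells were 10 higher (25.6%) and 9 lower (23.1%), against 29.8% and 28.9% of all genes tested, so the share of calls in the set was no larger than among all genes. Calls took 58.7% of all genes in WT cells, and 13 genes of the set were above and 10 below in every LPS library, against 32.2% and 30.9% of all genes. In cKO cells 16 rose (41%) and 6 fell (15.4%), against 29.3% and 34.8% of all genes. There, calls took 64.1% of all genes, and 19 genes of the set were above and 5 below in every LPS library, against 30.8% and 36.4% of all genes. Without the first library of both cKO groups, 14 rose and 6 fell in cKO cells, and Dnajb9 and Ssr4 were no longer called. With log2(TPM + 1) the median of all genes moved to -0.19 in WT and -0.47 in cKO cells, and calls in the set became 3 higher and 23 lower in cKO cells and 6 higher and 14 lower in WT cells, while centring gave 17 and 6 in cKO cells and 10 and 10 in WT cells. Of calls over all genes, 21.6% in cKO cells and 32.9% in WT cells were higher on the TPM scale, against 45.7% and 50.8% on counts.

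Ern1 in cKO cells had 30.4, 29.5 and 22.5 CPM with LPS, against 4.99, 3.46 and 3.35 CPM in medium. In WT cells it had 11.6, 12.6 and 10.3 CPM with LPS, against 3.74, 4.37 and 5.38 CPM in medium. The LPS libraries lay above the medium libraries in both genotypes, with log2 fold changes of 2.80 ± 0.18 in cKO cells (adjusted p = 4.3e-11) and 1.35 ± 0.18 in WT cells (adjusted p = 2.2e-06). The genotype by LPS interaction, which tests the difference between these changes, was 1.45 ± 0.26 (adjusted p = 0.0011).

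Xbp1 in cKO cells had 342, 336 and 329 CPM with LPS, against 746, 620 and 685 CPM in medium. In WT cells it had 476, 450 and 479 CPM with LPS, against 462, 541 and 455 CPM in medium. The cKO libraries with LPS lay far below those in medium and the WT groups overlapped. The log2 fold change was -1.03 ± 0.09 in cKO cells (adjusted p = 2.1e-09) and -0.05 ± 0.09 in WT cells (adjusted p = 0.62), and the interaction was -0.97 ± 0.12 (adjusted p = 4.7e-05). Atf6 rose in both genotypes, by 1.14 ± 0.11 in cKO cells (57.6, 54.7 and 60.5 CPM with LPS, against 25.3, 30.1 and 22.8 CPM in medium) and by 0.67 ± 0.10 in WT cells (48.6, 55.4 and 52.4 CPM with LPS, against 35.1, 31.9 and 31.2 CPM in medium).

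**Figure D2:**
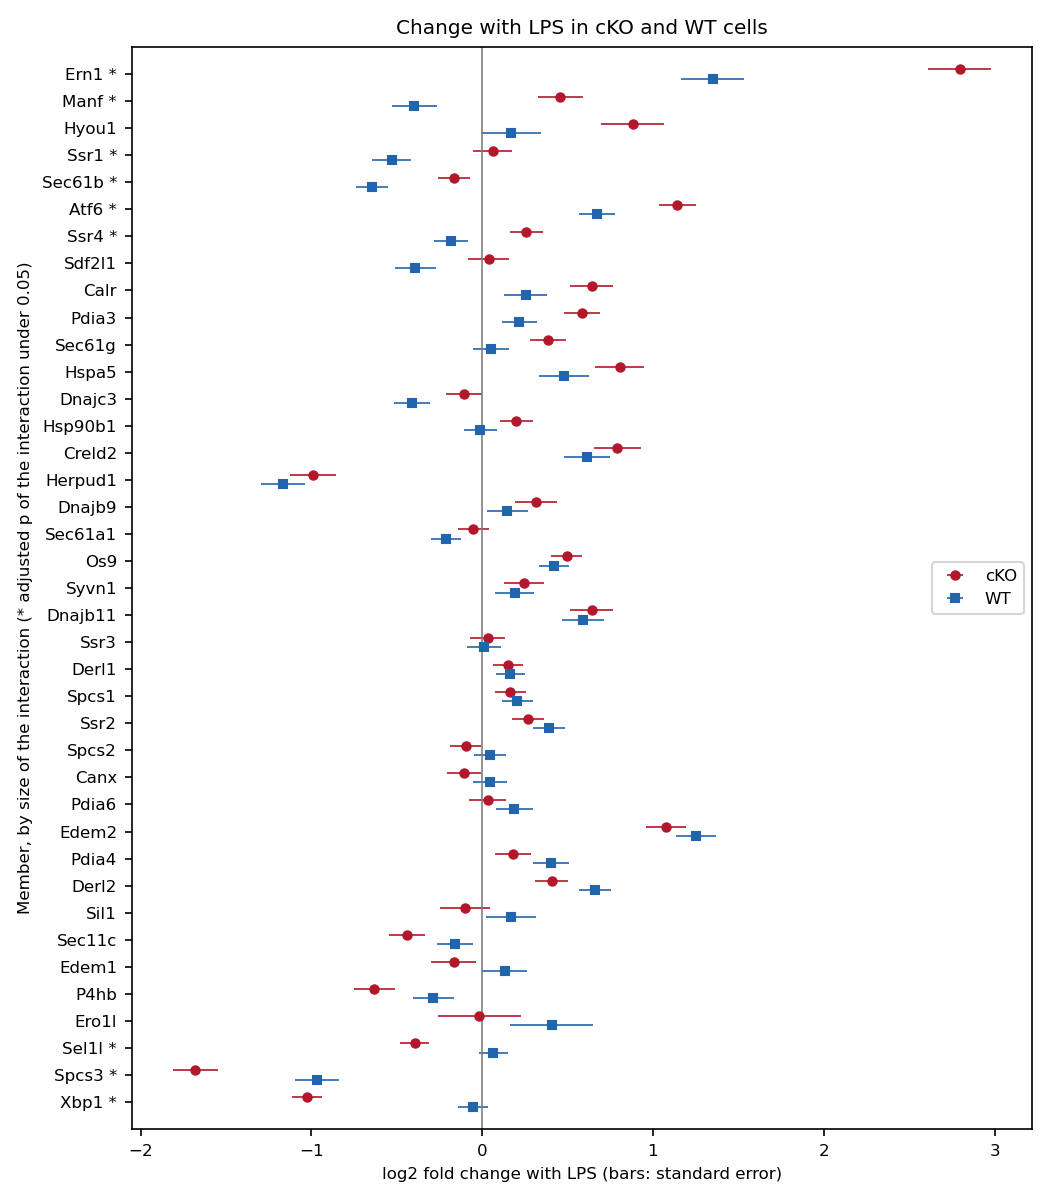
Log2 fold change with LPS (horizontal axis, bars are standard errors) of the 39 tested genes in cKO cells (red circles) and WT cells (blue squares), ordered by the interaction, with a star where its adjusted p was under 0.05. Ern1 (2.80 in cKO, 1.35 in WT) and Xbp1 (-1.03 in cKO, -0.05 in WT) stand at the ends.

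Among chaperones, BiP rose with LPS in both genotypes, by 0.81 ± 0.14 in cKO cells and 0.48 ± 0.14 in WT cells on the log2 scale. Its level was 1259, 1309 and 1103 CPM in cKO LPS, against 897, 639 and 565 CPM in cKO medium, and the interaction was not called. Creld2 rose by 0.79 ± 0.14 in cKO and 0.61 ± 0.14 in WT cells, and Dnajb11, the J-protein partner of Sdf2l1 on BiP, by 0.64 ± 0.13 and 0.59 ± 0.12 in cKO and WT cells. Hyou1 (0.88 ± 0.19), Calr (0.64 ± 0.12) and Pdia3 (0.58 ± 0.10) were called in cKO cells but not in WT cells (0.17 ± 0.18, 0.25 ± 0.12 and 0.22 ± 0.10), and their interactions were not called. Manf moved in opposite directions, with 72.1, 76.2 and 66.1 CPM in cKO LPS, against 50.2, 55.9 and 50.1 CPM in cKO medium, and 50.2, 61.0 and 52.4 CPM in WT LPS, against 66.1, 63.0 and 86.3 CPM in WT medium (0.46 ± 0.13 in cKO, -0.40 ± 0.13 in WT, interaction 0.85 ± 0.18, adjusted p = 0.0035). The value of Manf in cKO cells was -0.07 in log2(TPM + 1). Sdf2l1 fell with LPS in WT cells (-0.39 ± 0.12, adjusted p = 0.0081) and was not called in cKO cells (0.04 ± 0.12), and its interaction missed the threshold (adjusted p = 0.085). Hsp90b1 was called in neither genotype.

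In ERAD, Edem2, the enzyme thought to start mannose trimming, had 380, 361 and 368 CPM in cKO LPS, against 201, 152 and 173 CPM in cKO medium. In WT cells it had 230, 306 and 267 CPM with LPS, against 119, 118 and 99.7 CPM in medium. The rise was 1.08 ± 0.12 in cKO cells (adjusted p = 7.2e-08) and 1.25 ± 0.12 in WT cells (adjusted p = 1.3e-08), without overlap in either. Derl2, a derlin of the retrotranslocation channel, had 76.3, 86.0 and 80.5 CPM in WT LPS, against 49.9, 47.1 and 56.4 CPM in WT medium (0.66 ± 0.09, adjusted p = 4.3e-06). Herpud1 went the other way, at 34.4, 34.0 and 28.9 CPM in cKO LPS, against 70.6, 55.6 and 67.3 CPM in cKO medium (-0.99 ± 0.13, adjusted p = 1.6e-06). In WT cells Herpud1 had 38.0, 40.3 and 35.2 CPM with LPS, against 102, 79.7 and 73.2 CPM in medium (-1.17 ± 0.13, adjusted p = 1.6e-07). Edem2 and Herpud1 are both ERAD genes, and their LPS and medium libraries separated in opposite directions in both genotypes.

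At the translocon, Spcs3 fell to 75.0, 60.8 and 63.1 CPM in cKO LPS, against 261, 205 and 172 CPM in cKO medium. In WT cells it was 111, 92.1 and 108 CPM with LPS, against 221, 183 and 204 CPM in medium. The falls of -1.68 ± 0.13 in cKO cells and -0.97 ± 0.13 in WT cells on the log2 scale differed (interaction -0.71 ± 0.18, adjusted p = 0.010). Sec61b, the beta subunit of the translocon, had 132, 161 and 154 CPM in WT LPS, against 254, 231 and 213 CPM in WT medium (-0.64 ± 0.09, adjusted p = 5.3e-06). In cKO cells Sec61b was not called (-0.16 ± 0.09, adjusted p = 0.13), with an interaction of 0.48 ± 0.13 (adjusted p = 0.017). Spcs1 and Spcs2, the other accessory subunits of the signal peptidase, were called in neither genotype.

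In all, 9 genes of the set passed the test for the genotype by LPS interaction, 6 positive (15.4%) and 3 negative (7.69%), against 7.33% and 10.1% of all genes tested. In either direction, 17.4% of all genes passed. Besides Ern1, Manf and Sec61b, the positive ones were Atf6 (0.47 ± 0.15), Ssr1 (0.59 ± 0.16) and Ssr4 (0.44 ± 0.14), and besides Xbp1 and Spcs3 the negative one was Sel1l (-0.46 ± 0.12, adjusted p = 0.012). Sel1l had 92.4, 85.4 and 87.2 CPM in cKO LPS, against 129, 112 and 108 CPM in cKO medium. In WT cells it had 110, 112 and 109 CPM with LPS, against 112, 98.4 and 106 CPM in medium. Ssr1 had 212, 188 and 194 CPM in cKO LPS, against 185, 235 and 150 CPM in cKO medium, and the interaction followed from its fall with LPS in WT cells (-0.53 ± 0.11). Without the first library of both cKO groups, Atf6, Ssr1 and Ssr4 were no longer called, and 4 positive and 3 negative calls were made. On the log2(TPM + 1) scale, where the median of all genes was -0.25 and 12.7% of calls were positive against 42% on counts, 2 genes were positive and 14 negative. Centring gave 8 and 3, with 66.8% of calls over all genes positive, and RLE scaling 8 and 3, with 55.2%. Of 14 granulocyte markers, 9 were lower and 1 higher with LPS in cKO cells, and 3 were higher in WT cells, where the sum of the list was 2230 to 4440 CPM with LPS and 922 to 1490 CPM in medium. Within that sum, Lcn2 alone was at 1180, 1170 and 1820 CPM in WT LPS, against 100, 76.8 and 42.3 CPM in WT medium. All 11 macrophage markers tested were called with LPS in both genotypes, 5 higher and 6 lower in each, and 4 had a called genotype by LPS interaction, 3 positive and 1 negative. They summed to 3920 to 4020 CPM in cKO LPS, against 2440 to 2680 CPM in cKO medium, and to 2640 to 2820 CPM in WT LPS, against 2200 to 2310 CPM in WT medium, and the part of these markers in the results was not tested. Of these sums, Cd14 made up 1900, 2010 and 1960 CPM in cKO LPS, against 834, 725 and 686 CPM in cKO medium. In WT cells Cd14 was at 744, 730 and 791 CPM with LPS, against 353, 350 and 221 CPM in medium.

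Among the 26 further signalling genes of the unfolded protein response, LPS raised 15 and lowered 7 in cKO cells, and raised 13 and lowered 3 in WT cells. Atf3 rose by 3.62 in cKO and 2.83 in WT cells on the log2 scale, Ppp1r15a by 2.005 and 2.78, and Traf2, an adaptor that binds IRE1, by 2.07 and 1.70 in cKO and WT cells. Most cholesterol genes controlled by SREBP2, a factor released by the same proteases as ATF6, fell with LPS. Of 18, 2 rose and 14 fell in cKO cells, and 12 fell in WT cells. Of the 41 targeting and N-glycosylation genes, 5 rose and 17 fell in cKO cells, and 5 rose and 14 fell in WT cells. Dpagt1, which makes the first sugar-lipid intermediate of N-glycans, was at -1.001 in cKO and -0.89 in WT cells.

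IL10 with TGF-β, without LPS, raised the BiP cofactor Dnajb9 more than any other gene of the set, and also raised Os9, Ern1, Hspa5, Dnajb11 and the signal peptidase subunit Spcs2. Herpud1, Sec61b, Spcs3, Ssr1 and Ssr3 were lower with the cytokines, though the call of Ssr1 was lost on leaving out any 1 library of either group. Of 39 genes, 13 rose (33.3%) and 5 fell (12.8%), against 18.3% and 16.9% of all genes tested, with a median of 0.12 over the set and -0.0016 over all genes. Calls took 35.2% of all genes, and 13 genes of the set were above and 5 below in every cytokine library, against 24.2% and 23.2% of all genes. On the log2(TPM + 1) scale, with the median of all genes at -0.12 and 34.1% of calls higher against 52% on counts, 8 rose and 8 fell, and centring gave 11 and 5. Libraries of the same number deviated together in these groups, and with the number as a block Spcs1 was no longer called and Syvn1 was called (log2 fold change 0.28).

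Dnajb9 had 84.7, 85.0 and 84.9 CPM with the cytokines, against 35.8, 33.7 and 36.9 CPM in medium. The libraries of each group lay close together and far from the other group, with a log2 fold change of 1.26 ± 0.12 (adjusted p = 3.1e-08). Os9, the lectin that recognises trimmed glycans, had 143, 165 and 154 CPM with the cytokines, against 92.9, 90.8 and 87.1 CPM in medium (0.77 ± 0.09, adjusted p = 6.2e-07). Spcs2 had 257, 240 and 261 CPM with the cytokines, against 165, 160 and 178 CPM in medium (0.59 ± 0.09, adjusted p = 2.6e-05). For both the groups did not overlap.

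Ern1 had 9.61, 8.29 and 8.39 CPM with the cytokines, against 3.74, 4.37 and 5.38 CPM in medium (log2 fold change 0.96 ± 0.18, adjusted p = 0.00031). Hspa5 had 811, 755 and 895 CPM with the cytokines, against 601, 499 and 652 CPM in medium (0.49 ± 0.14, adjusted p = 0.011). Both were higher in every cytokine library than in any medium library. Xbp1 had 492, 521 and 525 CPM with the cytokines, against 462, 541 and 455 CPM in medium, and was not called. Hsp90b1, at 738, 658 and 761 CPM with the cytokines, and Creld2, at 76.6, 58.4 and 81.9 CPM, overlapped their medium levels and were not called (-0.15 ± 0.10 and -0.07 ± 0.14), nor was Sdf2l1. Herpud1 had 41.3, 33.3 and 42.3 CPM with the cytokines, against 102, 79.7 and 73.2 CPM in medium (-1.12 ± 0.13, adjusted p = 5.8e-07). Sec61b had 143, 135 and 140 CPM with the cytokines, against 254, 231 and 213 CPM in medium (-0.74 ± 0.09, adjusted p = 2.2e-06), and Spcs3 124, 121 and 118 CPM with the cytokines, against 221, 183 and 204 CPM in medium (-0.74 ± 0.13, adjusted p = 9.1e-05). All cytokine libraries lay below all medium libraries for these 3 genes, so the signal peptidase subunits Spcs2 and Spcs3 separated in opposite directions.

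The cytokine groups also differed in cell-type markers. With the cytokines 11 of 13 tested dendritic-cell markers were lower, 7 of 11 macrophage markers higher and 1 lower, and 13 of 14 granulocyte markers higher, at a summed 6720 to 9610 CPM against 922 to 1490 CPM in medium, and their part in these results was not tested. Of the 26 further signalling genes, 10 rose, among them Ppp1r15a (1.20) and Map3k5, a stress kinase downstream of IRE1 (1.78). Of the 37 other chaperones and folding enzymes, 9 rose and 2 fell, with Nucb2, a calcium-binding protein, 1.04 higher.

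When LPS was given together with the cytokines, most HSP70 and HSP90 chaperones and cofactors were lower than with LPS alone. Creld2 had the lowest log2 fold change of the set, and Hspa5, Hsp90b1, Hyou1, Dnajb11, Dnajc3, Sdf2l1 and Manf were lower too, while Dnajb9 was higher. Of the 10 HSP70 and HSP90 chaperones and cofactors, 8 fell and 1 rose, and their values were below 0 in 8 of 10 under TMM, RLE, upper-quartile, TPM and centred TPM scaling. Of all 39 genes 5 rose (12.8%) and 18 fell (46.2%), against 19.1% and 21.1% of all genes tested. Calls took 40.3% of all genes, and 6 genes of the set were above and 22 below in every library, against 25.5% and 27% of all genes. The median was -0.20 over the set and -0.01 over all genes.

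Creld2 had 53.1, 46.6 and 48.4 CPM with LPS and cytokines, against 101, 138 and 110 CPM with LPS. The groups were far apart, with a log2 fold change of -1.23 ± 0.14 (adjusted p = 4.8e-07). Sdf2l1, which with Dnajb11 keeps BiP clients soluble, had 57.4, 50.3 and 57.1 CPM with LPS and cytokines, against 97.5, 97.4 and 79.8 CPM with LPS (-0.74 ± 0.12, adjusted p = 5.7e-05). Hspa5 had 597, 537 and 616 CPM with LPS and cytokines, against 721, 935 and 787 CPM with LPS (-0.48 ± 0.14, adjusted p = 0.011). Hsp90b1, the lumenal HSP90 needed by Toll-like receptors, had 628, 575 and 615 CPM with LPS and cytokines, against 745, 804 and 817 CPM with LPS (-0.38 ± 0.10, adjusted p = 0.0035). None of these 4 genes overlapped between the groups.

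Dnajb9 had 92.4, 87.1 and 66.6 CPM with LPS and cytokines, against 36.3, 41.8 and 39.8 CPM with LPS (log2 fold change 1.06 ± 0.12, adjusted p = 4.1e-07). Os9 had 199, 181 and 199 CPM with LPS and cytokines, against 113, 126 and 123 CPM with LPS (0.68 ± 0.09, adjusted p = 3e-06). P4hb had 2028, 1927 and 2088 CPM with LPS and cytokines, against 1368, 1021 and 1397 CPM with LPS (0.67 ± 0.12, adjusted p = 0.00013). These and Derl1 and Spcs2 were the genes of the set that rose. Pdia6, a disulfide isomerase that binds BiP and carries an ERSE, fell by 0.53 ± 0.11, and Canx by 0.37 ± 0.10.

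In sensing and signalling, Ern1 had 12.5, 14.2 and 13.3 CPM with LPS and cytokines, against 11.6, 12.6 and 10.3 CPM with LPS. It was not called (0.21 ± 0.17, adjusted p = 0.34). Xbp1 had 482, 489 and 477 CPM with LPS and cytokines, against 476, 450 and 479 CPM with LPS (0.04 ± 0.09, adjusted p = 0.72). Atf6 fell by 0.29 ± 0.10 (adjusted p = 0.028), with 42.7, 45.9 and 39.0 CPM with LPS and cytokines, against 48.6, 55.4 and 52.4 CPM with LPS. Sec61b had 97.02, 101 and 95.2 CPM with LPS and cytokines, against 132, 161 and 154 CPM with LPS (-0.61 ± 0.09, adjusted p = 2.6e-05). The Sec61b groups did not overlap, whereas those of Ern1 and Xbp1 did.

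Of the 18 genes that fell, 14 had a promoter window (Atf6, Hyou1, Manf and Spcs3 did not). Of these 14, 6 carry an ERSE, the ones printed above, against 9 of the 31 genes of the set with a window. Dnajb11 carries an ERSE-II. Calr and Syvn1, which also carry an ERSE, were not called (-0.20 ± 0.12 and 0.09 ± 0.11), and Derl3, the remaining ERSE gene, had too few counts to be tested. A link between the ERSE and the fall was not tested. Leaving out 1 library moved the count of lower genes to 10 (without the third library with LPS and cytokines) or 11 (without the second WT LPS library). All 13 tested dendritic-cell markers were lower and 8 of 11 macrophage markers higher with LPS and cytokines, granulocyte markers summed to 6390 to 7510 CPM against 2230 to 4440 CPM with LPS, and their part in these results was not tested. Of the 37 other chaperones and folding enzymes, 8 rose and 4 fell, with the oxidase Qsox1 at a log2 fold change of 1.53 and Dnajc10, a disulfide reductase of ERAD clients, at -0.84. Of the 26 further signalling genes, 5 rose and 6 fell, with Wfs1, a membrane protein of the endoplasmic reticulum, at -1.99 and Atf3 at -1.83. Of the 34 other ERAD factors, 4 rose and 4 fell, and of the 41 targeting and N-glycosylation genes, 9 rose and 4 fell.

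**Figure D3:**
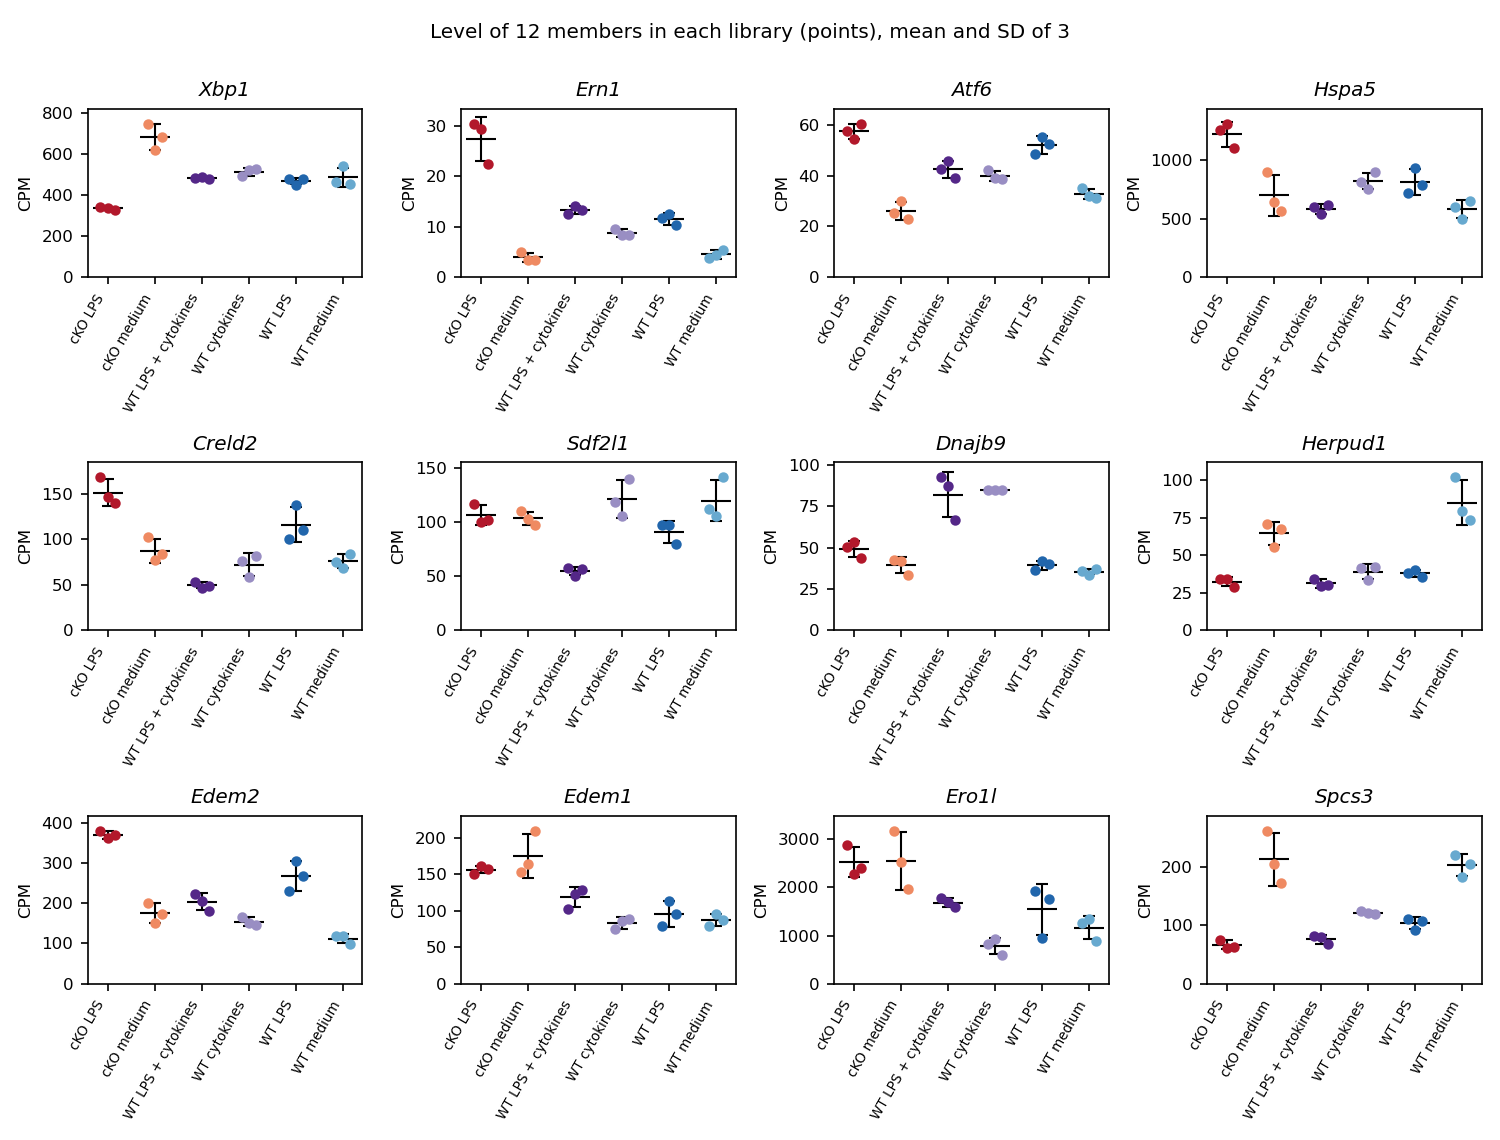
CPM of 12 genes of the set in each library (points), with the group mean and SD of 3 libraries (bar and whiskers), on axes from 0. The 3 libraries of WT LPS with cytokines are lowest for Creld2 (46.6 to 53.1 CPM) and Sdf2l1 (50.3 to 57.4 CPM), and the cKO LPS libraries are highest for Ern1 (22.5 to 30.4 CPM).

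Compared with the cytokines alone, LPS added to them was followed by lower levels of most chaperones and higher levels of 4 ERAD factors. Of the 10 HSP70 and HSP90 chaperones and cofactors, 8 fell, and all 10 values were below 0 under the same 5 scalings. Of 8 tested ERAD genes, 4 rose (Edem1, Edem2, Derl2 and Os9), with 7 of 8 values above 0 on counts and 4 of 8 on the log2(TPM + 1) scale. Of all 39 genes, 8 rose (20.5%) and 16 fell (41%), against 23.9% and 23.1% of all genes tested. Of all genes, 46.9% were called, and 8 genes of the set were above and 21 below in every library, against 30.4% and 29.8% of all genes. The TPM scale, with the median of all genes at -0.11 and 35.8% of calls higher against 50.9% on counts, gave 4 higher and 23 lower, and centring 8 and 15.

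Sdf2l1 had 57.4, 50.3 and 57.1 CPM with LPS and cytokines, against 119, 106 and 140 CPM with cytokines (log2 fold change -1.15 ± 0.12, adjusted p = 2.4e-07). Dnajc3, a J-protein that binds unfolded clients of BiP, had 42.8, 37.6 and 44.1 CPM with LPS and cytokines, against 82.3, 70.5 and 79.3 CPM with cytokines (-0.90 ± 0.11, adjusted p = 8.6e-07). Manf had 40.6, 33.3 and 35.2 CPM with LPS and cytokines, against 74.0, 61.7 and 85.4 CPM with cytokines (-1.02 ± 0.13, adjusted p = 2.6e-06). For each, the highest library with LPS lay below the lowest without it. Hspa5 had 597, 537 and 616 CPM with LPS and cytokines, against 811, 755 and 895 CPM with cytokines (-0.49 ± 0.14, adjusted p = 0.0082), also without overlap.

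Ero1l had 1770, 1696 and 1588 CPM with LPS and cytokines, against 829, 929 and 604 CPM with cytokines (log2 fold change 1.098 ± 0.25, adjusted p = 0.0019). Edem1 had 103, 123 and 129 CPM with LPS and cytokines, against 74.3, 85.6 and 89.1 CPM with cytokines (0.51 ± 0.13, adjusted p = 0.0034). Derl2 had 73.1, 74.6 and 78.3 CPM with LPS and cytokines, against 56.3, 61.0 and 58.8 CPM with cytokines (0.36 ± 0.09, adjusted p = 0.0036). These 3 genes did not overlap between the groups. Dnajb9 stayed high in both (92.4, 87.1 and 66.6 CPM with LPS and cytokines, against 84.7, 85.0 and 84.9 CPM with cytokines) and was not called (-0.05 ± 0.11, adjusted p = 0.75). Herpud1 had 34.5, 29.2 and 29.9 CPM with LPS and cytokines, against 41.3, 33.3 and 42.3 CPM with cytokines, and missed the threshold (adjusted p = 0.052).

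Of the 26 further signalling genes of the unfolded protein response, 8 rose and 3 fell, with Ddit3, the stress-induced factor CHOP, at a log2 fold change of 1.96 and Ppp1r15a at 1.22. Of the 41 targeting and N-glycosylation genes, 4 rose and 15 fell, with Rpn1, a subunit of the oligosaccharyltransferase, at -0.75. Of the 18 cholesterol genes 1 rose and 10 fell. Dendritic-cell markers were close between the groups, at 1520 to 2030 CPM with LPS and cytokines and 1760 to 2420 CPM with cytokines, with 3 of 13 lower. Macrophage markers summed to 4210 to 4690 CPM with LPS and cytokines, against 3140 to 3820 CPM with cytokines, with 3 of 11 higher and 3 lower. Granulocyte markers were at 6390 to 7510 CPM with LPS and cytokines and 6720 to 9610 CPM with cytokines, with 1 of 14 higher and 2 lower. Their median log2 fold change was -0.87. Within the sum, Lcn2 was at 3120, 2700 and 2670 CPM with LPS and cytokines, against 577, 427 and 646 CPM with cytokines. S100a8 lay the other way, at 1450, 1740 and 1290 CPM, against 2430, 2430 and 3550 CPM with cytokines. The part of these cell types in the results was not tested.

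Whether the LPS response of WT cells differed with the cytokines was tested as an interaction. BiP rose with LPS alone and fell with LPS on top of the cytokines, as did Creld2 and Dnajb11. Calr, Pdia3, Pdia6, Hyou1 and Ssr2 also had a positive value without and a negative value with cytokines. Of these, Calr and Pdia3 were called in neither setting, Pdia6 and Hyou1 only with cytokines, and Ssr2 without them. The interaction was negative for 14 of 39 genes (35.9%) and positive for 2 (5.13%), against 12.1% and 8.88% of all genes tested. In either direction, 20.9% of all genes passed. For the 10 HSP70 and HSP90 chaperones and cofactors all values were negative under the 5 scalings, and 7 were called. On the log2(TPM + 1) scale, with the median of all genes at 0.10 and 56.1% of calls positive against 42.4% on counts, 7 were negative and 2 positive, and upper-quartile scaling, with an all-gene median of 0.11 and 55.7% of calls positive, gave 9 and 2.

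Creld2 changed by -0.55 ± 0.14 with LPS on top of the cytokines and by 0.61 ± 0.14 with LPS alone, an interaction of -1.16 ± 0.19 (adjusted p = 0.00016). Hspa5 changed by -0.49 ± 0.14 with cytokines present and by 0.48 ± 0.14 without them (interaction -0.97 ± 0.20, adjusted p = 0.0016). Dnajb11 had 113, 105 and 124 CPM with LPS and cytokines, against 130, 140 and 155 CPM with cytokines. Without cytokines, Dnajb11 had 129, 174 and 147 CPM with LPS, against 85.1, 94.3 and 119 CPM in medium. The groups were thus separated in opposite directions (interaction -0.90 ± 0.18, adjusted p = 0.00079). Edem2 rose in both settings, with 223, 207 and 181 CPM with LPS and cytokines, against 166, 151 and 146 CPM with cytokines, and less than with LPS alone (interaction -0.85 ± 0.16, adjusted p = 0.00071). The positive interactions were those of Herpud1 (0.85 ± 0.19, adjusted p = 0.0022) and P4hb (0.71 ± 0.17, adjusted p = 0.0051).

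**Figure D4:**
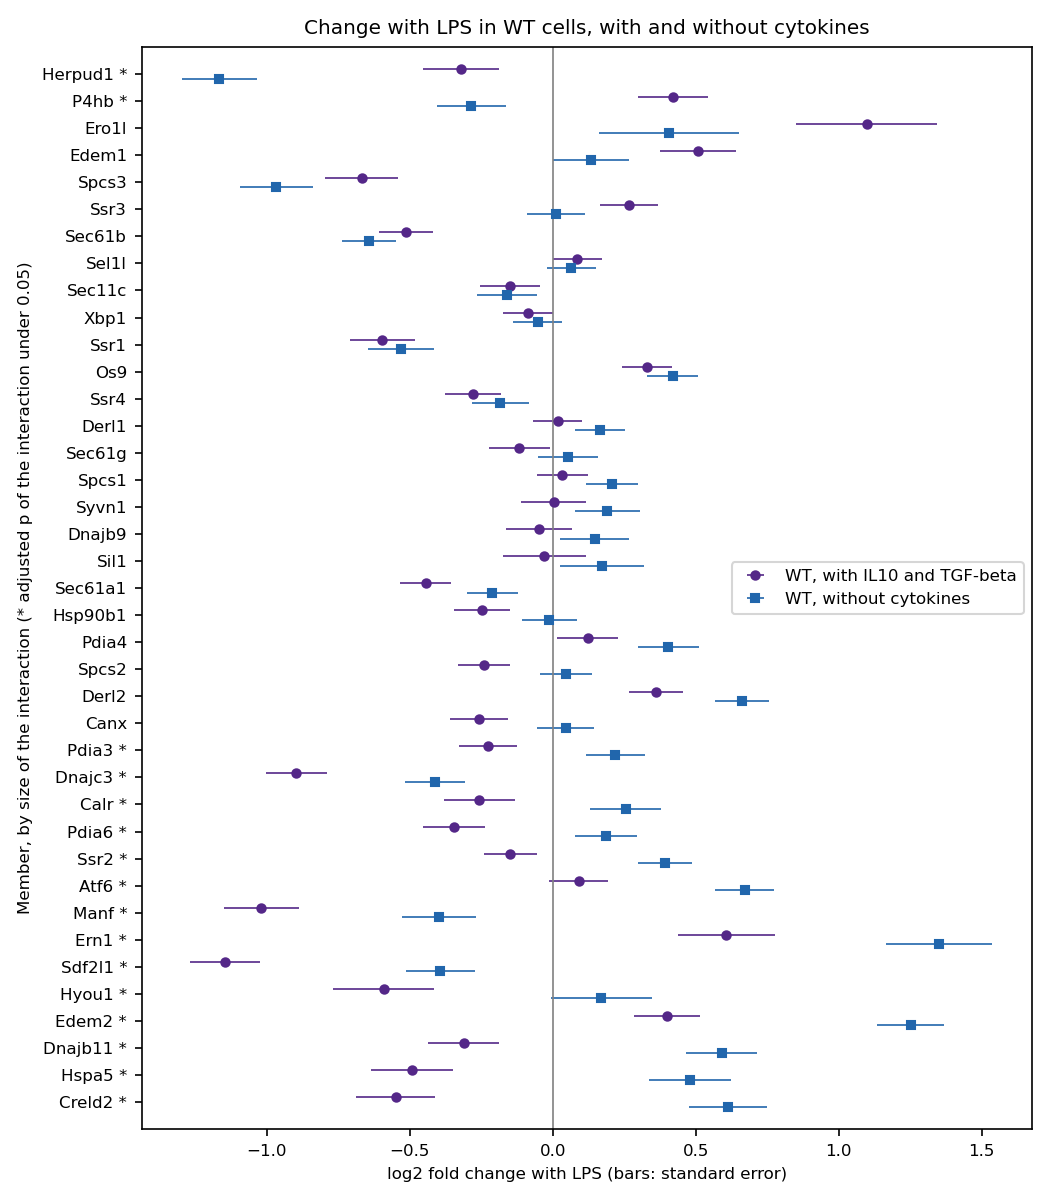
Log2 fold change with LPS (horizontal axis, bars are standard errors) of the 39 tested genes in WT cells with IL10 and TGF-β (purple circles) and without them (blue squares), ordered by the interaction, with a star where its adjusted p was under 0.05. Creld2 (-0.55 with cytokines, 0.61 without) and Hspa5 (-0.49 with, 0.48 without) lie at the bottom, Herpud1 at the top.

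The count of negative interactions was 7 without the second library of LPS with cytokines or the second WT medium library, and 9 without the first or the third cytokine library, while it was 14 without the third WT medium library, the one low in dendritic-cell markers. Ern1, Hyou1, Calr and Pdia3, with adjusted p between 0.033 and 0.042, were among those whose calls were lost when single libraries were left out. Of the 13 dendritic-cell markers, 1 had a called interaction, against 3 of 14 granulocyte markers and 10 of 11 macrophage markers (6 positive and 4 negative), and their part in these results was not tested. Of the 26 further signalling genes of the unfolded protein response, 8 were negative and 1 positive, with the smallest p for Atf3 (-1.93), Ppp1r15a (-1.55) and its constitutive relative Ppp1r15b (-1.11). Of the 37 other chaperones and folding enzymes, 2 were negative, Dnajc10 (-0.62) and Dnajb12 (-0.92).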

How the data were processed

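RNA-seq of sorted live CD11c-high mouse dendritic cells was analysed in 18 libraries, 3 per group; the labels mention 5 biological replicates and the series text triplicates. The authors deposited expected counts per gene and TPM values from RSEM, per the file headers, and bcl2fastq, RSEM and the mm10 build are named in the submitters' processing notes; the strand setting is not given in the sources used here. The members and lists were chosen with earlier results of these data known. Deposited expected counts were rounded to whole numbers, filtered with filterByExpr, scaled by TMM and fitted over all 6 groups with edgeR's robust quasi-likelihood test (edgeR 4.0.16, R 4.3.3), with Benjamini-Hochberg adjustment over all 11876 genes tested and calls at an adjusted p under 0.05. Values per library are CPM on TMM-scaled sizes. Deposited TPM values were used for levels between genes and, as log2(TPM + 1), in limma 3.58.1.

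Named genes are Hspa5, Xbp1, Ern1, Atf6, Hsp90b1, Sdf2l1, Creld2, Herpud1, Dnajb9 and, in each comparison, the 3 called genes of the set per direction with the smallest p; from each other pathway list, examples come from the 3 called genes with the smallest p, and other genes of the set were named after their values were seen. Alternatives were RLE and upper-quartile scaling, no count filter, only the groups compared, DESeq2 1.42.0, limma on TPM, removal of Rn45s, a replicate block, and leaving out libraries; TPM centred on each library's median was chosen after seeing the data. The scripts were tested on simulated data. Same-numbered libraries of WT cytokines and WT medium deviated together over 8118 genes (correlations 0.352, 0.215 and 0.445), as the only directly compared pair of groups where each correlation passed 0.1. WT LPS with cytokines and WT medium, which both enter the cytokine by LPS interaction, had 0.25, 0.105 and 0.215. For cKO LPS and cKO medium they were 0.171, 0.051 and 0.184, and the first library of both had the female pattern. The main fit held no term for the library number. Total counts of 8056831 to 12068759 per library limit the precision of the lowest genes. Replicate libraries differed by more than sampling noise. Promoter windows are those of RefSeq on GRCm38.p6.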

Additional observations from a re-analysis of the deposited data

Results flagged for a closer look

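The change with LPS differed between groups for 25 gene and contrast pairs of the set, each by edgeR's interaction test at an adjusted p under 0.05. Between cKO and WT cells, the difference in log2 fold change was positive for Ern1 (1.45), Manf (0.85), Ssr1 (0.59), Sec61b (0.48), Atf6 (0.47) and Ssr4 (0.44). It was negative for Xbp1 (-0.97), Spcs3 (-0.71) and Sel1l (-0.46). Between WT cells with and without IL10 and TGF-β, it was positive for Herpud1 (0.85) and P4hb (0.71). It was negative for Creld2 (-1.16), Hspa5 (-0.97), Dnajb11 (-0.90), Edem2 (-0.85), Hyou1 (-0.76), Sdf2l1 (-0.75), Ern1 (-0.74), Manf (-0.62), Atf6 (-0.58), Ssr2 (-0.54), Pdia6 (-0.53), Calr (-0.51), Dnajc3 (-0.48) and Pdia3 (-0.45).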

How the results depend on the processing

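Of the genes of the set called in each comparison, those called under every setting tried were 8 of 16 for cKO against WT in medium, 6 of 16 under LPS, 9 of 22 for LPS in cKO cells, 11 of 19 for LPS in WT cells, 12 of 18 for cytokines, 12 of 23 for LPS with cytokines against LPS, 14 of 24 against cytokines, 4 of 9 for the genotype by LPS and 8 of 16 for the cytokine by LPS interaction. Upper-quartile scaling gave 12 lower genes for LPS in cKO cells and 9 negative cytokine by LPS interactions. Fitting only the groups compared gave 2306 calls over all genes and 4 lower genes of the set for cKO against WT in medium. Limma on log2(TPM + 1) gave 3 higher and 19 lower for cKO against WT under LPS, 3 and 23 for LPS in cKO, 6 and 14 for LPS in WT, 8 and 8 for cytokines, 4 higher for LPS with cytokines against cytokines, 2 and 14 for the genotype by LPS interaction (3309 calls over all genes) and 7 negative cytokine by LPS interactions, against 9 with centring. Only the uncentred TPM values turned the sign of a gene called on either scale. These were, for cKO against WT under LPS, Dnajb9 (-0.039), Dnajc3 (-0.30), Derl1 (-0.29), Os9 (-0.27), Sec11c (-0.28), Spcs1 (-0.23), Spcs2 (-0.22), Ssr2 (-0.28) and Ssr3 (-0.32), and for LPS in WT Spcs2 (-0.21). For LPS in cKO they were Hsp90b1 (-0.32), Dnajb9 (-0.21), Sdf2l1 (-0.49), Manf (-0.071), Pdia4 (-0.34), Pdia6 (-0.49), Derl1 (-0.37), Derl2 (-0.11), Os9 (-0.039), Sec61g (-0.15), Spcs1 (-0.36), Ssr1 (-0.43), Ssr2 (-0.25), Ssr3 (-0.48) and Ssr4 (-0.28). The cause was not tested. Without the first library of both cKO groups, 5 genes rose in medium and 1268 genes had a genotype by LPS interaction. Leaving out single libraries gave 5 to 11 higher genes for cKO against WT in medium, 7 to 11 under LPS, 10 to 16 lower for LPS with cytokines against LPS and 7 to 14 negative cytokine by LPS interactions. With the replicate block, Spcs1 lost its call for cytokines and no other call of the set was lost, while 6 were gained; the counts became 9 and 9 for cKO against WT in medium, 12 and 4 under LPS and 2 and 14 for the cytokine by LPS interaction.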
